A study of Mus musculus with 24 samples.

Results

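The Wnt genes described here are the secreted Wnt ligands, their Frizzled (Fzd) receptors and 3 families of secreted modulators (Sfrp, Dkk and Rspo), measured at the mouse maternal-fetal interface (MFI) through the later part of gestation. They were chosen by symbol alone, without any measured value, and gave 41 of the 55401 annotated genes: 19 Wnt ligands, 10 Fzd receptors, 4 Sfrp, 4 Dkk and 4 Rspo genes. Bulk RNA-seq of MFI tissue compared wild-type (WT) mice with mice homozygous for a deletion of C1qtnf6 (C1qtnf6-KO), which encodes the placental hormone CTRP6, at 4 stages named by gestation day (gd), the earliest gd10.5, then gd14.5 and gd16.5 and the latest gd19.5. Each of the 8 groups held 3 libraries, and the labels name no treatment. The C1qtnf6-KO allele was made by CRISPR-Cas9 on a C57BL/6 background as a constitutive deletion, so that both the mother and the conceptus of a KO x KO mating lacked the gene. The MFI is a mixture of maternal decidua, uterine vessels and muscle, and fetal placenta. In such bulk tissue, fewer cells of a type and less RNA per cell cannot be told apart. The labels name no dam, litter or batch, so the p-values measure only the spread between these libraries.

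Wnt ligands are lipid-modified secreted proteins that bind a Fzd receptor together with the co-receptor Lrp5 or Lrp6, which stabilises β-catenin and switches on genes with TCF/LEF factors, while some ligands act through Fzd and Ror receptors without β-catenin. Sfrp proteins resemble the ligand-binding part of a Fzd receptor and bind Wnts outside the cell, Dkk1, Dkk2 and Dkk4 bind the Lrp5/6 co-receptors, and Rspo proteins raise the signal by keeping Fzd receptors at the cell surface through the Lgr4 to Lgr6 receptors. In the mouse uterus Wnt4 is known for its part in decidualization, and in the placenta Wnt2, Wnt7b, Fzd5 and Rspo3 are known for their parts in chorioallantoic fusion and labyrinth development.

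The libraries held 20975717 to 37383108 counts, and the labels do not say whether reads or read pairs were counted. Levels are given as CPM, a gene's count scaled to a common library size, here with TMM factors for composition over all 24 libraries, and as CPM per kilobase of exon where genes are set beside each other. At these depths 3 counts, the smallest number read here as detection, were worth 0.0803 to 0.143 CPM. C1qtnf6 itself stood at 64.7 to 168 CPM in the 12 WT libraries and at 0.0341 to 2.05 CPM in the 12 C1qtnf6-KO libraries. Every library thus matched the genotype on its label, while stage and replicate number cannot be checked by this gene. Each C1qtnf6-KO library carries a number from 3 to 5 in its title and from 1 to 3 in its description. C1qtnf6-KO replicates are called here by the second of these numberings. Markers of decidua, smooth muscle, endothelium and trophoblast were present, apart from Synb, a labyrinth gene at 0 in every WT library of gd10.5 and of gd19.5, and the marker sums differed between stages. In WT MFI the summed level of 7 markers of uterine stroma and decidua ran from 5961 to 13357 CPM at gd10.5 and from 2464 to 2769 CPM at gd14.5. That of 5 spongiotrophoblast and glycogen cell markers ran from 1272 to 1939 CPM and from 23437 to 25371 CPM at the same stages. The part of this change in composition in the stage differences below was not tested. One library stood apart from its group in these sums. In replicate 2 of the C1qtnf6-KO gd10.5 group the spongiotrophoblast sum was 10535 CPM, against 1272 to 1939 CPM in WT gd10.5 libraries and 941 and 747 CPM in the other two of its group, and its decidual sum of 2289 CPM was the lowest of the 6 libraries at gd10.5. Several results are also given without this replicate 2. The yolk sac endoderm markers were uneven at gd10.5 too. Their sum was 3640 CPM in WT replicate 1, against 14.2 and 20.1 CPM in WT replicates 2 and 3. In the C1qtnf6-KO gd10.5 libraries it ran from 1199 to 3586 CPM.

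Of the 41 genes, 34 passed the filter on low counts in the fit of all 24 libraries and 7 did not. The 7 were Wnt1, Wnt3a, Wnt8b, Fzd10, Dkk4, Rspo1 and Rspo2, whose highest count in any library lay between 1 and 10. The filter keeps a gene that is high in a single group, so counts over these 34 are descriptions and lend no support of their own.

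The make-up of the ligand pool changed from a pool led by Wnt4 to one led by Wnt7b. Summed over the 19 ligands, the level per kilobase (mean ± SD, n = 3) was 24.7 ± 2.19 CPM per kb in WT MFI at gd10.5, then 18.0 ± 0.381 (gd14.5), 28.7 ± 1.47 (gd16.5) and lastly 30.9 ± 2.30 (gd19.5). In C1qtnf6-KO MFI it was 21.1 ± 7.25, 18.7 ± 1.21, 29.9 ± 2.56 and 37.5 ± 3.17 CPM per kb. The sum was therefore lowest at gd14.5 in both genotypes, although at gd10.5 the C1qtnf6-KO libraries spread too widely to be set apart from it. Wnt4, a ligand of the decidual stroma, made up 54.7, 59.3 and 51.1% of the WT sum at gd10.5 in replicates 1, 2 and 3, the order used for all library values. Its share was 26.1, 23.7 and 23.5% at gd14.5, then 14.03, 16.7 and 16.4% (gd16.5) and lastly 15.4, 14.6 and 15.7% (gd19.5). Wnt7b, a ligand of epithelia and of trophoblast, made up 10.9, 8.91 and 12.2% at gd10.5, then 31.1, 36.4 and 40.1% (gd14.5), 52.2, 49.5 and 50.6% (gd16.5) and lastly 51.0, 51.97 and 50.2% (gd19.5). The shares of Wnt4 and Wnt7b did not overlap between gd10.5 and any later WT stage. In C1qtnf6-KO MFI at gd10.5 Wnt4 took 58.2, 35.2 and 58.0% and Wnt7b 8.21, 24.2 and 5.86%. Replicate 2, the library that stood apart, had the lowest Wnt4 share and the highest Wnt7b share of the 6 libraries at that stage. At gd19.5 the C1qtnf6-KO shares were 13.8, 15.7 and 15.8% for Wnt4 and 55.0, 52.5 and 50.9% for Wnt7b.

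**Figure D1:**
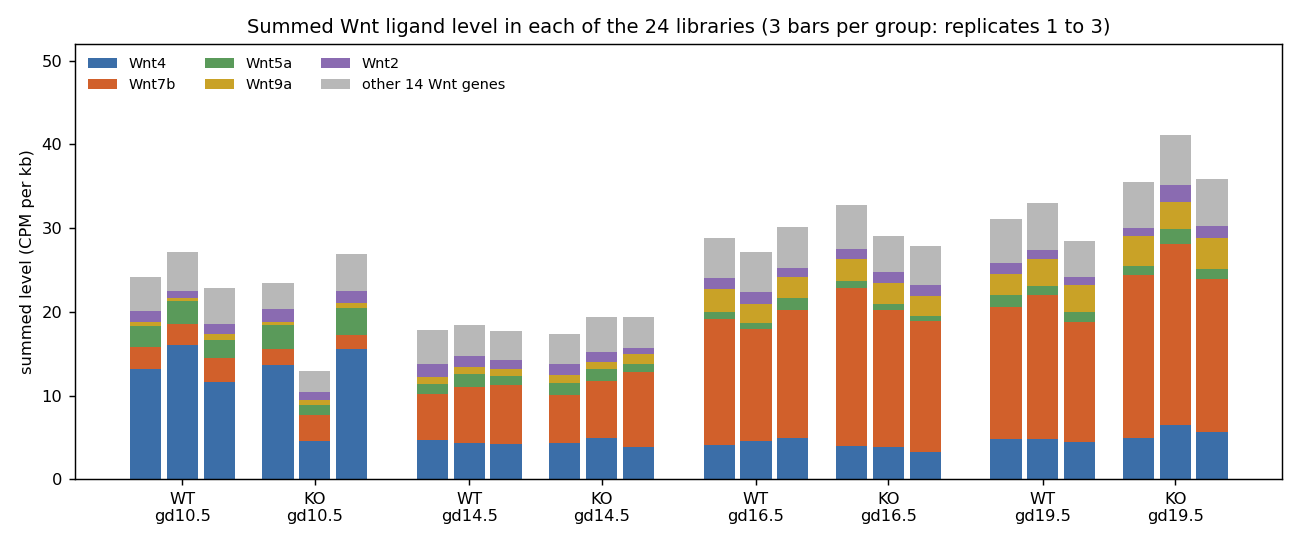
Summed level of the 19 Wnt ligands in CPM per kilobase of exon (y axis) in each of the 24 libraries (x axis, by stage and genotype), with the height of each bar divided among Wnt4, Wnt7b, Wnt5a, Wnt9a, Wnt2 and the other 14 ligands. Wnt4 takes the largest part of each of the 6 bars at gd10.5, and Wnt7b takes the largest part of every bar from gd14.5 on.

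In the order of ligand levels per kilobase at gd10.5 in WT MFI, Wnt4 (13.7 ± 2.24 CPM per kb, mean ± SD, n = 3) lay above Wnt7b (2.61 ± 0.182) and Wnt5a (2.47 ± 0.282), a ligand mostly known for signalling without β-catenin. The libraries of Wnt7b and Wnt5a overlapped, so these neighbours were not ordered. Wnt6 (1.27 ± 0.0285) and Wnt10a (1.16 ± 0.175) followed and overlapped as well. At gd14.5 Wnt7b (6.46 ± 0.822 CPM per kb) lay above Wnt4 (4.40 ± 0.240) in every library, and Wnt2 (1.28 ± 0.286) and Wnt5a (1.25 ± 0.212) came next without being separated. By gd19.5 the order was Wnt7b (15.8 ± 1.44 CPM per kb), Wnt4 (4.70 ± 0.193), Wnt9a (3.04 ± 0.407) and Wnt9b (1.86 ± 0.379), each above the next in all 3 libraries. The same 4 ligands led at gd19.5 in C1qtnf6-KO MFI, at 19.8 ± 1.69, 5.68 ± 0.778, 3.49 ± 0.241 and 1.93 ± 0.175 CPM per kb.

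To find which Wnt genes changed between stages, each stage was compared with the one before it within a genotype, using edgeR's quasi-likelihood test on all 24 libraries with Benjamini-Hochberg adjustment over 19299 genes. A gene was called when its adjusted p was under 0.05 and its log2 fold change over 1 in size. From gd10.5 to gd14.5 in WT MFI, 7 of the 34 Wnt genes rose and 10 fell (20.6% and 29.4%), where 10.55% of all genes tested rose and 11.9% fell. In C1qtnf6-KO MFI 8 rose and 9 fell, where 9.09% of all genes rose and 11.0% fell. Without replicate 2 of the C1qtnf6-KO gd10.5 group 8 rose and 10 fell, the 17 and Wnt5a, where 12.4% of all genes rose and 13.4% fell. The C1qtnf6-KO values of Wnt5b, Wnt3, Wnt2b, Fzd7, Fzd9 and Sfrp1 without it were 1.84, 1.39, 1.15, 1.096, -1.90 and -1.72 on the log2 scale, against 1.27, 1.02, 1.05, 1.03, -1.65 and -1.52 with it. The WT and KO steps share no library. In both genotypes alike 6 genes rose and 9 fell, and 31 of the 34 had the same sign (91.2%), against 88.3% of all genes tested. From gd14.5 to gd16.5, 23 of the 34 had the same sign in both genotypes (67.6%), against 74.5% of all genes. From gd16.5 to gd19.5, 21 did (61.8%), against 56.3%. From gd14.5 to gd16.5 the same 4 ligands rose in WT and C1qtnf6-KO MFI, Wnt7b, Wnt9a, Wnt9b and Wnt10b, where 2.78% and 5.36% of all genes rose. No Wnt gene fell at this step in WT MFI and 1, Sfrp4, fell in C1qtnf6-KO MFI, where 2.32% and 3.25% of all genes fell. From gd16.5 to gd19.5 edgeR called no Wnt gene in either genotype. Among all genes 0.917% rose and 0.570% fell in WT MFI, and 0.736% rose and 1.45% fell in C1qtnf6-KO MFI. At this last step 5 Wnt genes in WT and 14 in C1qtnf6-KO MFI had an unadjusted p under 0.05 (14.7% and 41.2%), as did 20.6% and 21.8% of all genes. DESeq2 called Wnt9b in WT MFI and Wnt9b and Wnt10b in C1qtnf6-KO MFI.

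**Figure D2:**
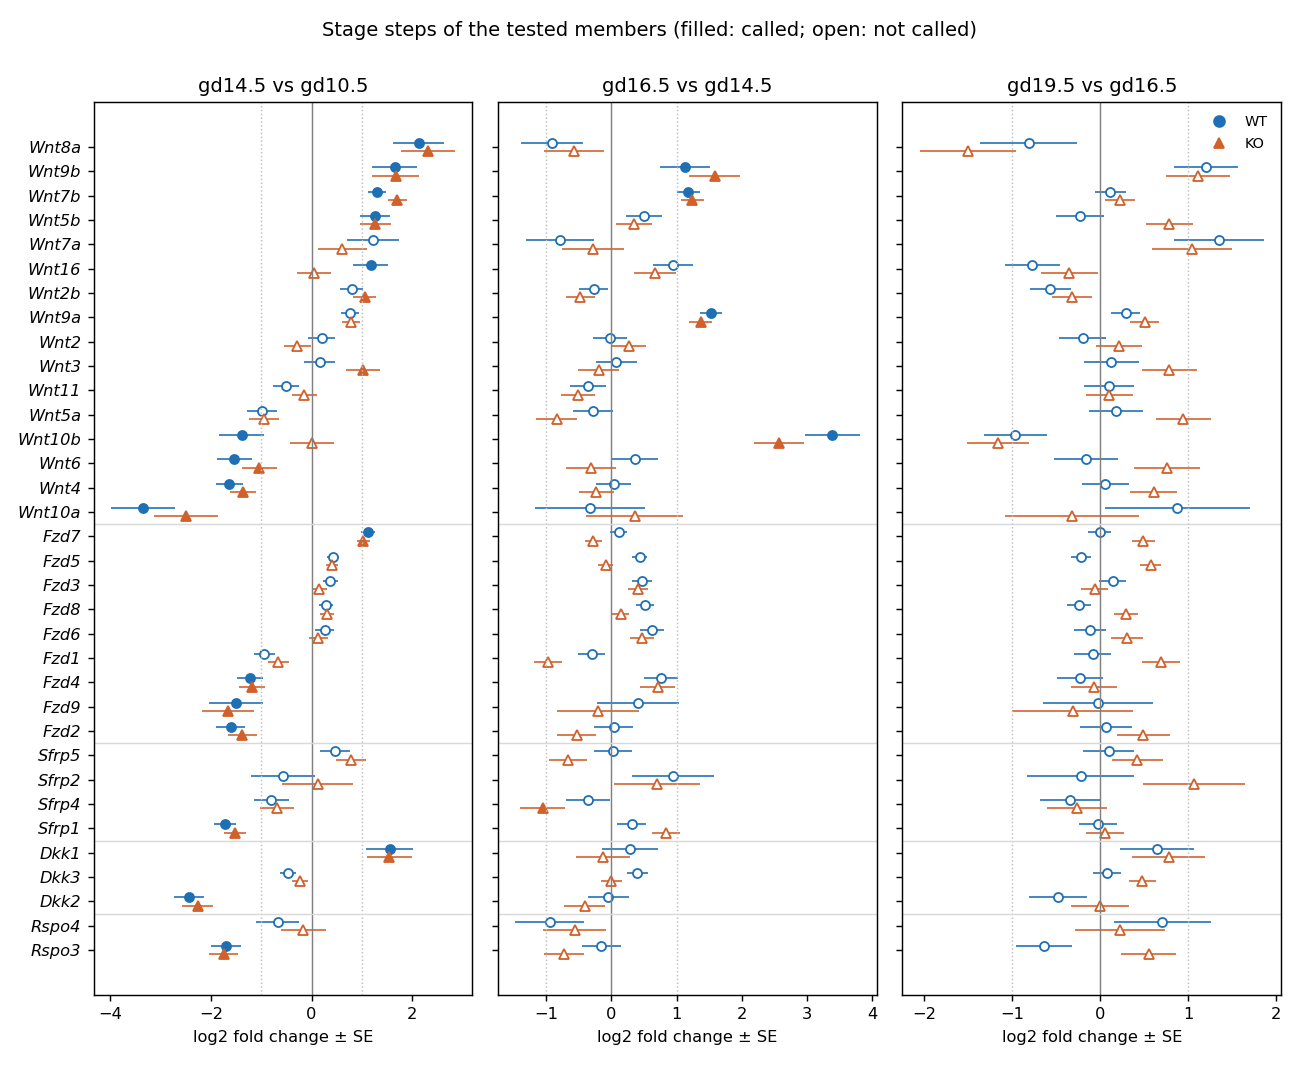
Log2 fold change (x axis) of the 34 tested Wnt genes (y axis) at the 3 stage steps, 1 panel a step, with circles for WT and triangles for C1qtnf6-KO MFI, bars of 1 standard error and filled symbols for called genes. Dotted lines mark a log2 fold change of 1 in either direction. The gd14.5 panel has called genes on both sides, the gd16.5 panel has called ligands on the right and Sfrp4 of C1qtnf6-KO MFI on the left, and the gd19.5 panel has none.

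Among the ligands, Wnt4 and Wnt10a fell from gd10.5 to gd14.5 in both genotypes. Wnt4 (chromosome 4, 137277489 to 137299726, + strand, GRCm38) stood at 55.5, 67.5 and 49.0 CPM in WT MFI at gd10.5 and at 19.51, 18.3 and 17.5 CPM at gd14.5. In C1qtnf6-KO MFI it stood at 57.2, 19.1 and 65.5 CPM and then at 18.2, 20.7 and 16.2 CPM. The stages did not overlap in WT MFI, whereas replicate 2 of the C1qtnf6-KO gd10.5 group lay among the gd14.5 values. The log2 fold change of Wnt4 was -1.64 ± 0.27 (SE, adjusted p = 4.78e-05) in WT MFI and -1.36 ± 0.27 (SE, adjusted p = 0.000316) in C1qtnf6-KO MFI, and -1.74 in C1qtnf6-KO MFI without that library. Wnt4 was not called at later steps and stood at 17.0, 19.1 and 20.7 CPM in WT MFI at gd16.5 and 20.04, 20.3 and 18.8 CPM at gd19.5. Wnt10a, a ligand best known from teeth and skin, was a low gene that went from 2.51, 3.35 and 2.75 CPM to 0.448, 0.221 and 0.126 CPM in WT MFI. In C1qtnf6-KO MFI it went from 1.83, 0.267 and 3.15 CPM to 0.346, 0.335 and 0.230 CPM. Its log2 fold change was -3.35 ± 0.64 (SE, adjusted p = 0.000211) in WT MFI and -2.50 ± 0.64 (SE, adjusted p = 0.00301) in C1qtnf6-KO MFI, the largest fall of any Wnt gene at this step in both genotypes. Without replicate 2 of the C1qtnf6-KO gd10.5 group, the only one of that group among the gd14.5 values, it was -3.00.

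Wnt6 lies next to Wnt10a on chromosome 1, with 6193 bases between them and both on the + strand, and it too fell at this step. Its log2 fold change was -1.53 ± 0.34 (SE, adjusted p = 0.000932) in WT and -1.04 ± 0.35 (SE, adjusted p = 0.0178) in C1qtnf6-KO MFI, and -1.43 in the latter without the gd10.5 library that stood apart. The C1qtnf6-KO call was lost in a fit of the 12 C1qtnf6-KO libraries alone (-1.04, adjusted p = 0.0761), without replicate 3 of the gd10.5 group (-0.34, adjusted p = 0.379) and without gd14.5 replicate 1 (adjusted p = 0.0528) or 3 (adjusted p = 0.0787). Wnt6 was named for its position after its values were seen. Wnt10b, which lies 11706 bases from Wnt1 on chromosome 15, was highest at gd16.5 in both genotypes. Its WT levels were 0.895, 0.918 and 0.423 CPM at gd10.5, then 0.211, 0.359 and 0.295 CPM (gd14.5), 3.64, 2.87 and 2.58 CPM (gd16.5) and lastly 1.87, 1.57 and 1.21 CPM (gd19.5). The C1qtnf6-KO levels were 0.784, 0.190 and 0.623 CPM, 0.283, 0.490 and 0.881 CPM, 3.44, 2.84 and 3.42 CPM and 1.97, 1.09 and 1.29 CPM. All 6 libraries at gd16.5 lay above all 6 at gd14.5, and the rise was 3.38 ± 0.42 (SE, adjusted p = 1.77e-05) in WT MFI and 2.57 ± 0.39 (SE, adjusted p = 0.0001) in C1qtnf6-KO MFI. The earlier fall was called in WT MFI, -1.39 ± 0.44 (SE, adjusted p = 0.0125), and was lost without WT gd10.5 replicate 2 (adjusted p = 0.0569) or gd14.5 replicate 1 (adjusted p = 0.0618). In C1qtnf6-KO MFI the value for that step was 0.01 ± 0.44 (SE, adjusted p = 0.984). The 2 genotypes were not shown to differ, since the test of genotype by stage gave Wnt10b an adjusted p of 0.78. From gd16.5 to gd19.5 Wnt10b was called lower in C1qtnf6-KO MFI by DESeq2 (-1.16, adjusted p = 0.0172) and by edgeR without the filter (-1.15, adjusted p = 0.0445), and stood at -1.16 ± 0.36 (SE, adjusted p = 0.057) otherwise.

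Wnt7b, Wnt9b and Wnt8a rose. Wnt7b (chromosome 15, 85535437 to 85582473, − strand) rose at 2 steps in a row, from 12.9, 11.9 and 13.6 CPM in WT MFI at gd10.5 to 27.1, 32.9 and 34.8 CPM at gd14.5 and 73.9, 65.9 and 74.6 CPM at gd16.5. It stood at 77.7, 84.2 and 70.1 CPM at gd19.5. In C1qtnf6-KO MFI the 4 stages gave 9.41, 15.3 and 7.72 CPM, 28.2, 33.7 and 43.8 CPM, 92.4, 80.1 and 76.6 CPM and 95.5, 106 and 89.6 CPM. The libraries of gd10.5, gd14.5 and gd16.5 did not overlap with each other in either genotype, and those of gd16.5 and gd19.5 did. The log2 fold change of Wnt7b was 1.30 ± 0.18 (SE, adjusted p = 1.08e-05) in WT MFI and 1.70 ± 0.19 (SE, adjusted p = 9.1e-07) in C1qtnf6-KO MFI from gd10.5 to gd14.5 (2.04 in the latter without gd10.5 replicate 2), and 1.18 ± 0.18 (SE, adjusted p = 0.00013) in WT MFI and 1.24 ± 0.18 (SE, adjusted p = 6.87e-05) in C1qtnf6-KO MFI from gd14.5 to gd16.5. The antisense gene AU022754 covers 6.62% of its exon bases. The defaults of the counting ignore strand and drop reads that overlap more than 1 gene, so reads there were left out of both counts.

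Wnt9b, a ligand of epithelia known from the kidney and the female reproductive tract, rose over the same stages from a low level. Its WT levels were 0.275, 0.513 and 0.846 CPM at gd10.5, then 2.45, 1.13 and 1.43 CPM (gd14.5), 2.604, 3.71 and 4.72 CPM (gd16.5) and lastly 8.57, 10.05 and 6.63 CPM (gd19.5). The C1qtnf6-KO levels were 0.336, 0.686 and 0.242 CPM, 1.26, 1.60 and 1.15 CPM, 6.87, 2.56 and 2.83 CPM and 8.08, 9.62 and 8.52 CPM. In both genotypes the libraries of each stage lay above those of the stage before. From gd10.5 to gd14.5 its log2 fold change was 1.65 ± 0.44 (SE, adjusted p = 0.00383) in WT MFI and 1.68 ± 0.47 (SE, adjusted p = 0.00569) in C1qtnf6-KO MFI, and 2.21 in the latter without gd10.5 replicate 2. From gd14.5 to gd16.5 it was 1.12 ± 0.38 (SE, adjusted p = 0.0474) in WT MFI and 1.58 ± 0.39 (SE, adjusted p = 0.00611) in C1qtnf6-KO MFI. The WT call at gd16.5 was lost under 4 of 6 omissions, those of WT gd14.5 replicates 2 and 3 and WT gd16.5 replicates 2 and 3 (adjusted p = 0.0981 to 0.173). The C1qtnf6-KO call was lost without gd16.5 replicate 1 (1.003, adjusted p = 0.0695). From gd16.5 to gd19.5 the values were 1.20 ± 0.36 (SE, adjusted p = 0.0638) in WT MFI and 1.11 ± 0.36 (SE, adjusted p = 0.0728) in C1qtnf6-KO MFI. DESeq2 called both, at adjusted p = 0.0249 and 0.0364, as did edgeR without the filter, at adjusted p = 0.0324 and 0.0355. edgeR called the WT step in the 12 WT libraries alone (adjusted p = 0.0387) and the C1qtnf6-KO step without gd16.5 replicate 1 (1.70, adjusted p = 0.0118).

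Wnt8a, a ligand best known from the early embryo, was near the limit of detection at gd10.5. It had 4, 13 and 8 counts in the WT and 2, 16 and 1 in the C1qtnf6-KO libraries. It stood at 0.138, 0.351 and 0.338 CPM in WT MFI at gd10.5 and at 1.26, 1.46 and 0.926 CPM at gd14.5. In C1qtnf6-KO MFI it stood at 0.0747, 0.609 and 0.0346 CPM and 1.16, 1.08 and 1.34 CPM. The stages did not overlap in either genotype. Its log2 fold change was 2.13 ± 0.51 (SE, adjusted p = 0.00166) in WT MFI and 2.32 ± 0.54 (SE, adjusted p = 0.0013) in C1qtnf6-KO MFI. It was called in C1qtnf6-KO MFI without replicate 2 of the gd10.5 group as well. There the remaining gd10.5 libraries hold so few counts that the size of the fold depends on the prior count. The other 5 called ligands were Wnt9a, which rose at gd16.5 in both genotypes, Wnt5b, which rose at gd14.5 in both, Wnt16 in WT MFI, and Wnt2b and Wnt3 in C1qtnf6-KO MFI, with log2 fold changes between 1.02 and 1.53. At gd10.5 Wnt16 was low in WT MFI, at 0.0630 ± 0.0340 CPM per kb, as was Wnt3 in C1qtnf6-KO MFI, at 0.137 ± 0.0657 CPM per kb. The calls of Wnt5b in WT MFI (without gd10.5 replicate 2), of Wnt16 (without WT gd10.5 replicate 1), of Wnt2b (without C1qtnf6-KO gd10.5 replicate 1 or gd14.5 replicate 2) and of Wnt3 (without C1qtnf6-KO gd10.5 replicate 3 or gd14.5 replicate 1 or 2) were each lost, at log2 fold changes of 0.90, 0.86, 0.91 and 0.86, and 0.69, 0.98 and 0.91. Wnt2, Wnt5a, Wnt7a and Wnt11 were not called at any step. Wnt5a, at -0.98 ± 0.30 (SE, adjusted p = 0.00922) in WT and -0.94 ± 0.30 (SE, adjusted p = 0.0128) in C1qtnf6-KO MFI from gd10.5 to gd14.5, was called lower in C1qtnf6-KO MFI without gd10.5 replicate 2 (-1.27, adjusted p = 0.000189) and without gd14.5 replicate 1 (-1.003) or 2 (-1.02), and in WT MFI without gd10.5 replicate 3 (-1.06) or gd14.5 replicate 2 (-1.09). Wnt7a, a gene of 0.120 to 0.561 CPM in the group means, was called higher in WT MFI with RLE size factors (1.23, adjusted p = 0.0496), without gd10.5 replicate 2 (1.69) or gd14.5 replicate 3 (1.40).

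**Figure D3:**
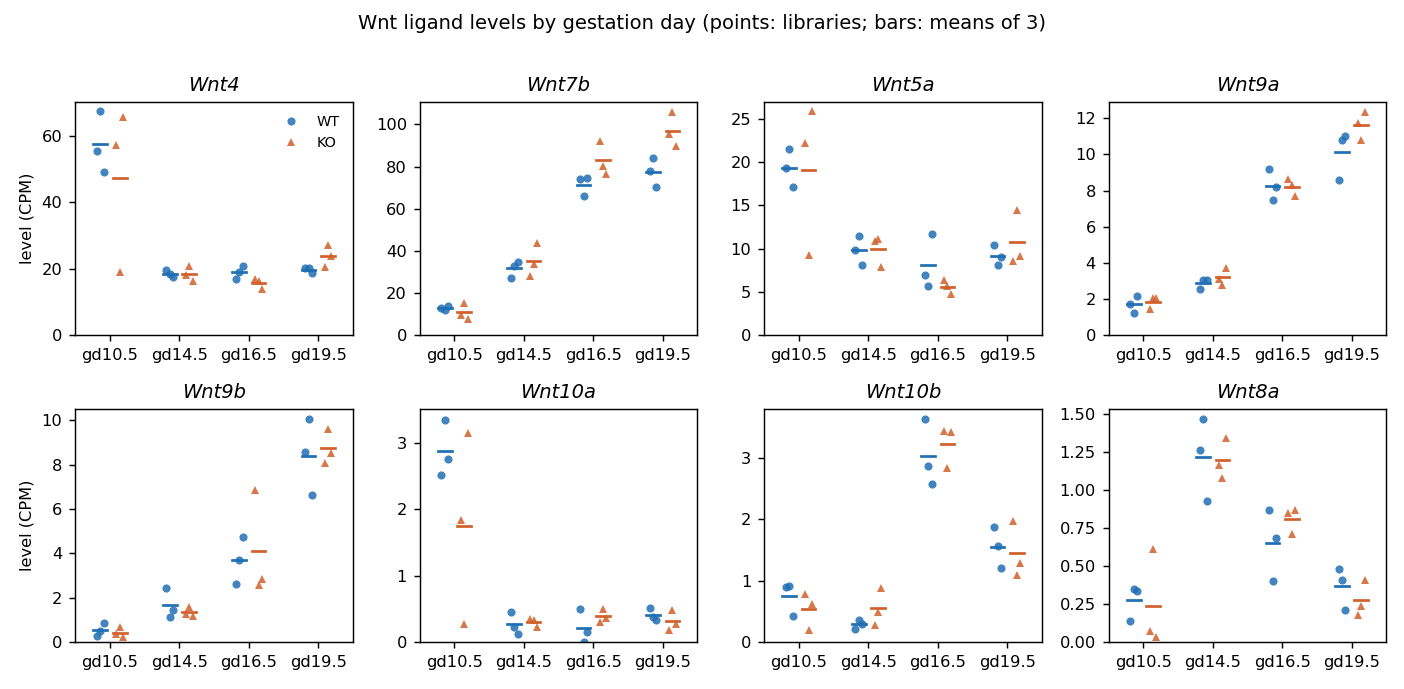
CPM (y axis, linear from 0) of Wnt4, Wnt7b, Wnt5a, Wnt9a, Wnt9b, Wnt10a, Wnt10b and Wnt8a at the 4 gestation days (x axis), 1 panel a gene, with a point for each library (circles for WT, triangles for C1qtnf6-KO MFI) and a short bar at each group mean. The points of the 2 genotypes lie together at most stages, Wnt4 and Wnt10a drop after gd10.5, Wnt7b climbs to gd16.5, and 1 point of C1qtnf6-KO gd10.5, replicate 2, lies away from its group in Wnt4, Wnt10a and Wnt8a.

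The 250 bases before the RefSeq transcription start are shown for 4 of the genes whose levels moved alike in both genotypes at gd14.5, a ligand and an inhibitor that fell (Wnt4 and Dkk2) and a ligand and an inhibitor that rose (Wnt9b and Dkk1), so that the promoters of opposite movers can be read side by side. They are RefSeq sequences of GRCm38.p6, written 5′ to 3′ on the strand of the gene, at chr4:137277385-137277634, + strand for Wnt4, chr3:132085042-132085291, + strand for Dkk2, chr11:103749822-103750071, − strand for Wnt9b and chr19:30549497-30549746, − strand for Dkk1. The 2 annotations do not place every start alike: 146 bases of the Wnt4 window and 169 of the Dkk1 window lie inside the gene as GENCODE draws it, and none of the Dkk2 and Wnt9b windows do. Capitals mark CTTTGA and its reverse complement TCAAAG, the core letters bound by TCF/LEF factors.
Wnt4: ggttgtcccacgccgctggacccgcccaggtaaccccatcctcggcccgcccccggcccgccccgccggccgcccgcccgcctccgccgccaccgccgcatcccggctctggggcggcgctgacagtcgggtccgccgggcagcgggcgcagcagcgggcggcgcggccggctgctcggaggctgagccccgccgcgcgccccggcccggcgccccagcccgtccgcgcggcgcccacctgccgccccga
Dkk2: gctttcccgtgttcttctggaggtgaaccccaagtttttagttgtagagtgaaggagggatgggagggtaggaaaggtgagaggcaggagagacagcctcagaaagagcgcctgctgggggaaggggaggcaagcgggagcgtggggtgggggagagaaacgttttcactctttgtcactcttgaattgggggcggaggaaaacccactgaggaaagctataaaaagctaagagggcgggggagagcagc
Wnt9b: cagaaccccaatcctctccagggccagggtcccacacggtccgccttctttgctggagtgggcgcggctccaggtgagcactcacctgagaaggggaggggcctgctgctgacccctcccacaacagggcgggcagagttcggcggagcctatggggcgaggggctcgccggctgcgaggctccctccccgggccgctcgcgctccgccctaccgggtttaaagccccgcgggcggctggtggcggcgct
Dkk1: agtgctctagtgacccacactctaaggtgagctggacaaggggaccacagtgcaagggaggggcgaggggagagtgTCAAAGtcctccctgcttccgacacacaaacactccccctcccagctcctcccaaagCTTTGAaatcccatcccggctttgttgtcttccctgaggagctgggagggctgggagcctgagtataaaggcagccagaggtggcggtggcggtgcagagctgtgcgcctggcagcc
Of these 4 windows only that of Dkk1 held the letters, in 2 places, once on each strand. RefSeq promoters were matched for 27 of the 41 Wnt genes, with 30 windows in all. The letters lay in 4 of the 30 windows (13.3%), those of Dkk1, Fzd1, Wnt5b and Wnt11, against 13.8% of the 32851 windows of all genes. The GC content of the Wnt gene windows had a median of 68.8% (48.4% to 87.6%), against 52.4% over all windows. Of the 15 genes called alike in both genotypes at gd14.5, 9 had a promoter window and 2 of these, Dkk1 and Wnt5b, held the letters. Both rose. A match of 6 letters is a description of the window and no evidence of binding.

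Fzd1 was the first Fzd receptor by level per kilobase in the means of every group, at 30.6 ± 4.42 CPM per kb (mean ± SD, n = 3) in WT MFI at gd10.5, then 15.9 ± 1.04 (gd14.5), 12.9 ± 3.63 (gd16.5) and lastly 12.2 ± 1.80 (gd19.5). It made up 55.9, 59.0 and 57.5% of the summed level of the 10 receptors in the WT libraries at gd10.5 and 30.6, 26.8 and 29.5% at gd19.5. Its log2 fold change from gd10.5 to gd14.5 was -0.94 ± 0.21 (SE, adjusted p = 0.000969) in WT MFI and -0.66 ± 0.21 (SE, adjusted p = 0.0137) in C1qtnf6-KO MFI, within the fold threshold of the call, and without WT gd10.5 replicate 3 it was called (-1.02, adjusted p = 0.00134). In C1qtnf6-KO MFI from gd14.5 to gd16.5 it was -0.97 ± 0.21 (SE, adjusted p = 0.003), and called without gd14.5 replicate 3 (-1.08, adjusted p = 0.00321). Fzd7 was second from gd14.5 on, at 8.50 ± 0.680 CPM per kb in WT MFI at gd14.5, but its libraries overlapped with those of Fzd1 and Fzd6 at gd16.5 in both genotypes and with those of Fzd6 at gd19.5 in WT MFI. Fzd5, the receptor known from yolk sac and labyrinth vessels, and Fzd6 lay below it at 5.68 ± 0.134 and 5.44 ± 0.297 CPM per kb at gd14.5 and were not separated from each other.

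Fzd7 rose and Fzd2, Fzd4 and Fzd9 fell from gd10.5 to gd14.5 in both genotypes, and no receptor was called at a later step. Fzd7 stood at 18.6, 15.7 and 18.7 CPM at gd10.5 and 38.8, 41.5 and 35.3 CPM at gd14.5 in WT MFI, and at 17.3, 20.9 and 19.8 CPM and 36.1, 44.7 and 37.7 CPM in C1qtnf6-KO MFI. Neither genotype overlapped between the stages, and replicate 2 of the C1qtnf6-KO gd10.5 group did not stand apart in Fzd7. The log2 fold change was 1.13 ± 0.13 (SE, adjusted p = 1.66e-06) in WT MFI and 1.03 ± 0.13 (SE, adjusted p = 4.61e-06) in C1qtnf6-KO MFI. The C1qtnf6-KO value fell below the fold threshold without gd10.5 replicate 1 (0.96) or gd14.5 replicate 2 (0.94). Fzd2 went from 15.5, 16.1 and 12.6 CPM to 4.26, 5.56 and 4.71 CPM in WT MFI and from 13.6, 7.20 and 21.0 CPM to 5.85, 6.34 and 3.87 CPM in C1qtnf6-KO MFI, a log2 fold change of -1.61 ± 0.29 (SE, adjusted p = 0.000134) in WT MFI and -1.38 ± 0.29 (SE, adjusted p = 0.000599) in C1qtnf6-KO MFI. Fzd4, which is also the receptor of the vascular ligand Norrin, went from 31.8, 35.2 and 19.4 CPM to 13.3, 11.8 and 11.8 CPM in WT MFI and from 33.1, 13.1 and 37.9 CPM to 11.9, 13.0 and 12.1 CPM in C1qtnf6-KO MFI. Its log2 fold change was -1.23 ± 0.26 (SE, adjusted p = 0.00059) in WT MFI and -1.18 ± 0.26 (SE, adjusted p = 0.000931) in C1qtnf6-KO MFI. In both Fzd2 and Fzd4 the stages were apart in every library, and replicate 2 of the C1qtnf6-KO gd10.5 group was the lowest of the 6 at its stage. Without that library the C1qtnf6-KO values were -1.68 for Fzd2 and -1.52 for Fzd4, whereas without gd10.5 replicate 3 they were -0.95 and -0.90 and no longer called.

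Fzd9 was a low gene, at 0.723, 0.783 and 0.169 CPM at gd10.5 and 0.211, 0.249 and 0.126 CPM at gd14.5 in WT MFI, with overlap between the stages. The C1qtnf6-KO libraries stood at 0.897, 0.457 and 0.8998 CPM and 0.378, 0.206 and 0.115 CPM without overlap. Its log2 fold change was -1.50 ± 0.54 (SE, adjusted p = 0.0239) in WT MFI and -1.65 ± 0.52 (SE, adjusted p = 0.0118) in C1qtnf6-KO MFI. The WT call was lost without gd10.5 replicate 1 or 2 or gd14.5 replicate 1 or 3 (adjusted p = 0.0579 to 0.123), and the C1qtnf6-KO call without gd14.5 replicate 3 (-1.37, adjusted p = 0.0559).

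Of the secreted modulators, Sfrp1, Dkk2 and Rspo3 fell and Dkk1 rose from gd10.5 to gd14.5 in both genotypes. Sfrp1 stood at 21.2, 15.3 and 18.7 CPM at gd10.5 and 5.40, 5.80 and 5.47 CPM at gd14.5 in WT MFI, and at 20.3, 11.5 and 16.9 CPM and 5.73, 4.77 and 6.51 CPM in C1qtnf6-KO MFI. Every gd10.5 library lay above every gd14.5 library, and the log2 fold change was -1.73 ± 0.22 (SE, adjusted p = 3.23e-06) in WT MFI and -1.52 ± 0.22 (SE, adjusted p = 1.38e-05) in C1qtnf6-KO MFI. Dkk2, whose promoter is printed above, went from 12.2, 24.3 and 8.72 CPM to 2.58, 3.12 and 2.65 CPM in WT MFI and from 15.9, 7.39 and 16.0 CPM to 2.90, 2.65 and 2.604 CPM in C1qtnf6-KO MFI. This was the largest fall among the modulators, -2.44 ± 0.30 (SE, adjusted p = 2.9e-06) in WT MFI and -2.27 ± 0.30 (SE, adjusted p = 7.49e-06) in C1qtnf6-KO MFI, with no overlap between the stages. Rspo3, an activator needed for the vessels of the placenta, went from 9.02, 15.4 and 7.19 CPM to 2.97, 3.04 and 3.79 CPM in WT MFI and from 12.6, 6.13 and 14.3 CPM to 3.18, 3.66 and 2.99 CPM in C1qtnf6-KO MFI. Its stages did not overlap either, and the log2 fold change was -1.70 ± 0.29 (SE, adjusted p = 7.49e-05) in WT MFI and -1.74 ± 0.29 (SE, adjusted p = 6.88e-05) in C1qtnf6-KO MFI. For Dkk2 and Rspo3, replicate 2 of the C1qtnf6-KO gd10.5 group was the lowest library at its stage, and without it the C1qtnf6-KO values were -2.55 and -2.03. The antisense gene Gm48159 shares 13.1% of the exon bases of Rspo3.

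Dkk1, an inhibitor of Lrp5/6 known as a product of the decidua, moved the other way. It stood at 0.964, 0.918 and 1.27 CPM at gd10.5 and 2.21, 3.23 and 3.79 CPM at gd14.5 in WT MFI without overlap. In C1qtnf6-KO MFI it stood at 0.859, 3.39 and 0.727 CPM and 3.68, 3.12 and 7.81 CPM, with replicate 2 of the gd10.5 group among the gd14.5 values. The log2 fold change was 1.55 ± 0.46 (SE, adjusted p = 0.00817) in WT MFI and 1.55 ± 0.44 (SE, adjusted p = 0.00649) in C1qtnf6-KO MFI. Without replicate 2 of gd10.5 the C1qtnf6-KO value was 2.603, and without replicate 3 of gd14.5 it was not called (1.05, adjusted p = 0.0642). By level per kilobase Dkk3, a family member that does not act through Lrp5/6, was the first Dkk gene in the means of every group. Dkk2 was second at gd10.5, at 4.07 ± 2.21 CPM per kb in WT MFI, against 0.433 ± 0.0787 for Dkk1. From gd14.5 Dkk1 was second, at 1.27 ± 0.329 CPM per kb, against 0.752 ± 0.0797 for Dkk2, and the 2 genes were apart in all 3 libraries at both stages. The same exchange was seen in C1qtnf6-KO MFI, where replicate 2 of gd10.5 kept Dkk2 above Dkk1 as well.

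Sfrp4 and Sfrp5 were the Sfrp genes with the highest levels per kilobase, at 52.03 ± 10.2 and 32.7 ± 11.5 CPM per kb in WT MFI at gd10.5, where their libraries overlapped. From gd14.5 Sfrp5 was first in every group mean, at 49.1 ± 11.0 CPM per kb in WT MFI at gd19.5, against 18.4 ± 3.20 for Sfrp4, and each Sfrp5 library lay above each Sfrp4 library except at gd16.5 in WT MFI. Sfrp4, a product of the uterine stroma, stood at 237, 247 and 168 CPM in WT MFI at gd10.5, then 130.4, 145 and 100.1 CPM (gd14.5), 92.8, 50.7 and 149 CPM (gd16.5) and lastly 92.3, 68.7 and 69.5 CPM (gd19.5). The C1qtnf6-KO libraries stood at 147, 87.3 and 246 CPM, 96.8, 119.6 and 81.9 CPM, 44.2, 50.0 and 49.5 CPM and 45.4, 24.9 and 49.4 CPM. The C1qtnf6-KO libraries at gd16.5 lay below all those at gd14.5, while in WT MFI gd16.5 replicate 3 was the highest library of both stages. The log2 fold change from gd14.5 to gd16.5 was -0.36 ± 0.34 (SE, adjusted p = 0.51) in WT MFI and -1.05 ± 0.35 (SE, adjusted p = 0.0325) in C1qtnf6-KO MFI. The C1qtnf6-KO call was lost without gd14.5 replicate 1 or 2 or any of the 3 gd16.5 replicates (adjusted p = 0.0636 to 0.121) and in a fit of the 12 C1qtnf6-KO libraries alone (-1.05, adjusted p = 0.0513). On leaving out 1 library, Sfrp5 was called higher from gd10.5 to gd14.5 in C1qtnf6-KO MFI (without gd10.5 replicate 3, 1.17, adjusted p = 0.00407) and Sfrp1 higher from gd14.5 to gd16.5 (without gd16.5 replicate 3, 1.01, adjusted p = 0.00332). Rspo4 was called lower from gd14.5 to gd16.5 in WT MFI without gd16.5 replicate 3 (-1.91, adjusted p = 0.0412), and Wnt16 lower from gd16.5 to gd19.5 without WT gd19.5 replicate 2 (-1.29, adjusted p = 0.0448). Rspo4 was a low gene, at 0.203 ± 0.0983 CPM per kb in WT MFI at gd14.5 and 0.111 ± 0.0991 CPM per kb at gd16.5, so its fold rests on few counts.

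**Figure D4:**
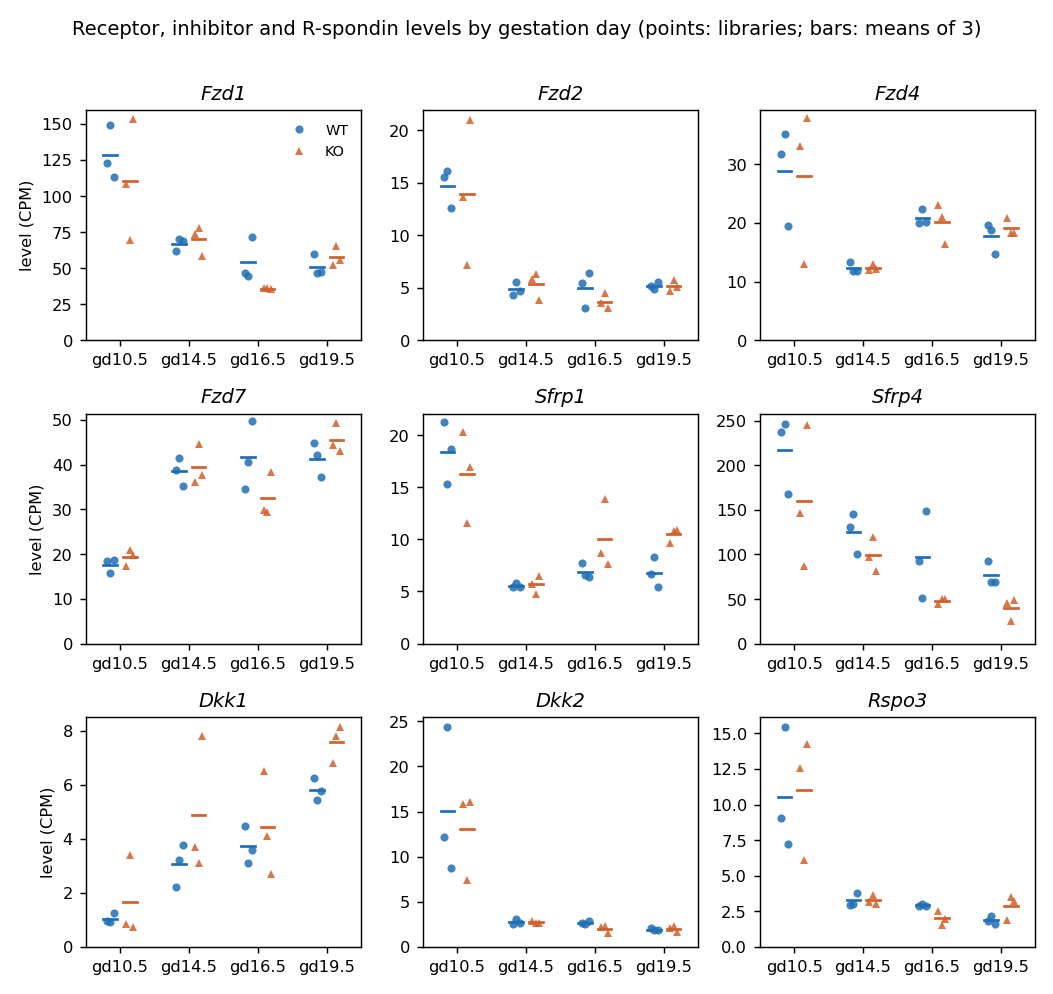
CPM (y axis, linear from 0) of Fzd1, Fzd2, Fzd4, Fzd7, Sfrp1, Sfrp4, Dkk1, Dkk2 and Rspo3 at the 4 gestation days (x axis), 1 panel a gene, with a point for each library (circles for WT, triangles for C1qtnf6-KO MFI) and a short bar at each group mean. Fzd2, Sfrp1, Dkk2 and Rspo3 drop after gd10.5, Fzd7 and Dkk1 climb, and the C1qtnf6-KO points of Sfrp4 lie below the WT points at gd16.5 and gd19.5.

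The other genes of the pathway were read from a list of 41 receptors, secretion factors, modulators, cytoplasmic and nuclear parts and common targets, of which 38 were tested. At gd14.5, 4 rose and 6 fell in WT MFI (10.53% and 15.8%) and 4 rose and 4 fell in C1qtnf6-KO MFI (10.53% and 10.53%), against the shares of all genes given above for the Wnt genes. At gd16.5, 2 rose and 2 fell in WT MFI (5.26% and 5.26%), where 2.78% and 2.32% of all genes did. In C1qtnf6-KO MFI 1 rose and 2 fell (2.63% and 5.26%), where 5.36% and 3.25% of all genes did. At gd19.5, 1 rose in each genotype (2.63%), where 0.917% of all genes rose in WT and 0.736% in C1qtnf6-KO MFI. Among the common targets, Myc, a regulator of growth, fell at gd14.5, with log2 fold changes of -1.77 ± 0.21 (SE, adjusted p = 1.71e-06) in WT MFI and -1.93 ± 0.21 (SE, adjusted p = 7.74e-07) in C1qtnf6-KO MFI, from 48.0, 37.7 and 53.9 CPM to 13.3, 12.4 and 15.3 CPM in WT MFI. Nkd2, a feedback inhibitor, rose at the same step by 1.57 ± 0.23 (SE, adjusted p = 1.35e-05) in WT MFI and 1.81 ± 0.24 (SE, adjusted p = 6.9e-06) in C1qtnf6-KO MFI, from 0.482, 0.459 and 0.550 CPM to 1.26, 1.60 and 1.56 CPM in WT MFI. Its relative Nkd1 rose at gd16.5 by 1.01 ± 0.14 (SE, adjusted p = 5.91e-05) in WT MFI and 1.28 ± 0.14 (SE, adjusted p = 4.86e-06) in C1qtnf6-KO MFI, and Ccnd1, the gene of cyclin D1, fell at that step, at -1.18 ± 0.20 (SE, adjusted p = 0.000361) in WT MFI and -1.24 ± 0.20 (SE, adjusted p = 0.0002) in C1qtnf6-KO MFI. Axin2, often read as the most direct target of β-catenin signalling, was called at no step, and its group means ran from 12.9 to 21.0 CPM. Of the 5 common targets tested, 1 rose and 2 fell at gd16.5 in WT MFI, and 1 rose and 1 fell in C1qtnf6-KO MFI. From gd16.5 to gd19.5, 0 were called in WT MFI and 1 rose in C1qtnf6-KO MFI. The common targets thus did not move in 1 direction. Of the 9 co-receptors and receptors, Ror1 and Lgr6 fell at gd14.5 in WT MFI and Lgr6 fell at gd16.5 in C1qtnf6-KO MFI at -2.76 ± 0.45 (SE, adjusted p = 0.000231), where it stood at 2.68, 2.42 and 2.11 CPM and then at 0.448, 0.339 and 0.274 CPM. Ror1 and Axin2 were named after their values were seen. Between the genotypes edgeR and DESeq2 called none of the pathway genes at any stage, and in edgeR 0, 3, 5 and 6 of them had an unadjusted p under 0.05 from the earliest to the latest stage (0%, 7.89%, 13.5% and 15.8%), where 0.801%, 6.78%, 11.1% and 13.5% of all genes did.

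To ask whether the loss of C1qtnf6 changed these genes, each stage's 3 C1qtnf6-KO libraries were set against its 3 WT libraries, by the same edgeR test with the same thresholds. Tested were 31, 32, 29 and 32 of the 41 Wnt genes from the earliest to the latest stage. edgeR and DESeq2 called none of them at any stage, where edgeR called 0.00572%, 0.0166%, 0.00586% and 0.0230% of all genes tested. These are 1, 3, 1 and 4 genes, so the lack of a call does not show that a Wnt gene was unchanged. The study, using DESeq2 with these thresholds, reported more genes at gd16.5. The share of all genes called by DESeq2 is not given here. An unadjusted p under 0.05 was found for 0, 3, 9 and 9 Wnt genes (0%, 9.38%, 31.0% and 28.1%). Among all genes tested the shares were 0.801%, 6.78%, 11.1% and 13.5%. Both shares were higher at the 2 late stages. The libraries of the genotypes did not overlap for 1, 1, 10 and 7 of the tested Wnt genes (3.23%, 3.125%, 34.5% and 21.9%). Among all genes 4.18%, 12.5%, 17.7% and 21.4% did not, so the share at gd19.5 was near that of all genes. Of the 10 at gd16.5, 9 were lower in C1qtnf6-KO MFI, and of the 7 at gd19.5, 6 were higher. The directions among all genes without overlap are not given here. The median log2 fold change over the tested Wnt genes was -0.07, 0.03, -0.26 and 0.16 from gd10.5 to gd19.5, against 0.01, -0.003, 0.01 and -0.01 over all genes.

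**Figure D5:**
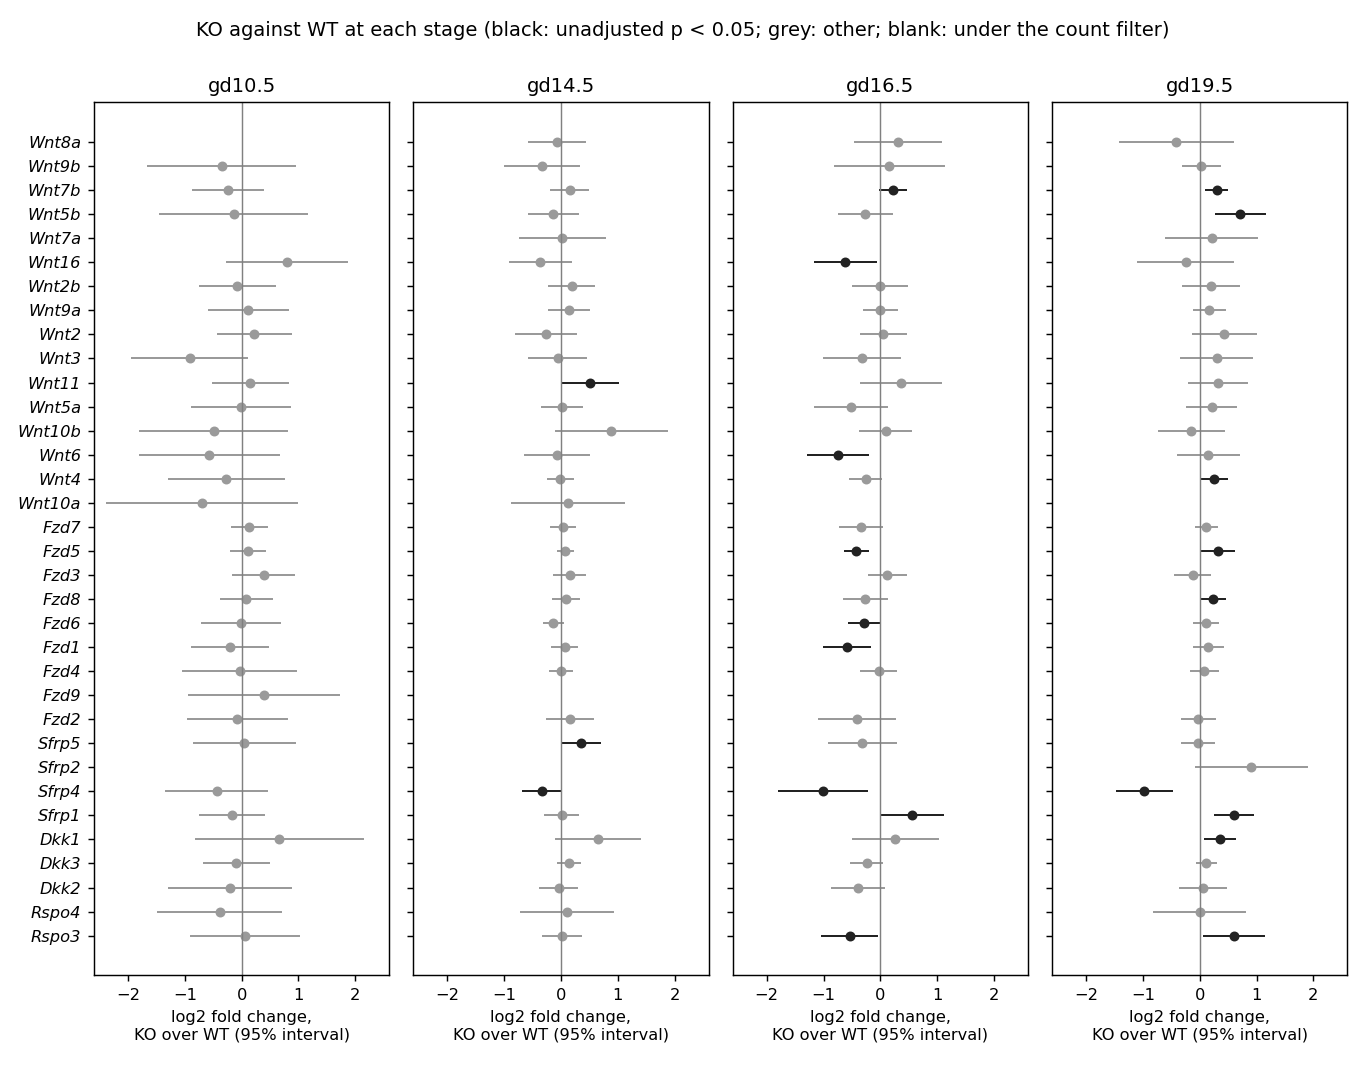
Log2 fold change of C1qtnf6-KO over WT MFI (x axis) with its 95% interval for the tested Wnt genes (y axis) at each of the 4 stages, 1 panel a stage, with black symbols for an unadjusted p under 0.05. The intervals are widest at gd10.5, most values at gd16.5 lie left of 0 and most at gd19.5 right of 0, and Sfrp4 lies left of 0 at all 4 stages.

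Sfrp4 had the largest difference of these genes with an unadjusted p under 0.05 at both late stages. Its library values, given above, did not overlap between the genotypes at gd16.5 or gd19.5, the C1qtnf6-KO libraries being the lower ones. The log2 fold change was -1.01 (95% interval -1.79 to -0.24) at gd16.5, with an adjusted p of 0.421, and -0.97 (95% interval -1.46 to -0.49) at gd19.5, with an adjusted p of 0.142. At gd10.5 and gd14.5 it was -0.44 (95% interval -1.33 to 0.45) and -0.34 (95% interval -0.67 to -0.002), and over all 4 stages in 1 additive model of 24 libraries -0.68 (95% interval -1.04 to -0.33), with an adjusted p of 0.408. WT gd16.5 replicate 3 decided the size of the gd16.5 value, which was -0.57 without it (adjusted p = 0.749). Over the 11 alternative settings the adjusted p ran from 0.0426 to 0.841 at gd16.5 and from 9.78e-27 to 0.534 at gd19.5, and the log2 fold change stayed negative in each. The lowest of both came from edgeR without the filter on low counts, which called 50 genes at gd16.5 and 82 at gd19.5, against 1 and 4 with it. Sfrp4 was past the thresholds in that setting at gd16.5 (-1.04, adjusted p = 0.0426).

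The other Wnt genes with an unadjusted p under 0.05 at gd16.5, none of them past the adjusted threshold in edgeR with the filter, were lower in C1qtnf6-KO MFI for Wnt6 (-0.74), Wnt16 (-0.61), Fzd1 (-0.58), Rspo3 (-0.54), Fzd5 (-0.42) and Fzd6 (-0.28) and higher for Sfrp1 (0.56) and Wnt7b (0.23), with log2 fold changes in parentheses. At gd19.5 the other 8 were all higher in C1qtnf6-KO MFI, namely Wnt5b (0.72), Rspo3 (0.61), Sfrp1 (0.60), Dkk1 (0.36), Fzd5 (0.33), Wnt7b (0.30), Wnt4 (0.25) and Fzd8 (0.23). At gd14.5 the other two were Sfrp5 (0.35) and Wnt11 (0.52). DESeq2 gave Fzd5 at gd16.5 an adjusted p of 0.0201 and Sfrp1 at gd19.5 one of 0.0311, both within the fold threshold. In edgeR the smallest adjusted p of any Wnt gene was 1, 0.728, 0.354 and 0.142 from the earliest to the latest stage. The additive model over all stages called 0.0104% of all genes and no Wnt gene, and 6.34% of all genes and 3 of 34 Wnt genes (8.82%) had an unadjusted p under 0.05, Sfrp4, Dkk1 (0.48) and Wnt11 (0.34). DESeq2 called none in that model.

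Fzd5 and Rspo3, the genes with an unadjusted p under 0.05 at both late stages and opposite signs, were lower at gd16.5 and higher at gd19.5 in C1qtnf6-KO MFI. The difference between genotypes was 0.11, 0.08, -0.42 and 0.33 on the log2 scale from gd10.5 to gd19.5 for Fzd5, and 0.06, 0.02, -0.54 and 0.61 for Rspo3. Fzd5 stood at 48.8, 51.5 and 58.6 CPM in WT and 38.9, 37.9 and 40.7 CPM in C1qtnf6-KO MFI at gd16.5, and at 51.8, 46.2 and 38.8 CPM and 55.6, 68.5 and 50.5 CPM at gd19.5. The genotypes did not overlap at gd16.5, WT being higher. The test of genotype by stage over 24 libraries gave Fzd5 an unadjusted p of 0.000997 and an adjusted p of 0.486 in edgeR, and an adjusted p of 0.0443 in DESeq2. For Rspo3 the edgeR values were 0.101 and 0.735. edgeR called no Wnt gene in this test, where 0% of all genes were called, and 3 of 34 had an unadjusted p under 0.05 (Fzd5, Sfrp1 and Fzd7), where 7.23% of all genes did. The gene Gm38058 on the other strand shares 17.8% of the exon bases of Fzd5, and by the defaults of the counting reads there were left out of both counts.

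These genotype results moved when replicate 2 of the C1qtnf6-KO gd10.5 group was left out. At gd10.5 an unadjusted p under 0.05 was then found for 2 of 32 Wnt genes in place of 0, Wnt7b (-0.57) and Wnt3 (-1.27), where 3.90% of all genes had one, 0.0336% of all genes were called and no Wnt gene was. The Sfrp4 value at gd10.5 was -0.14. In the additive model Dkk1 (0.32, unadjusted p = 0.0687) left and Sfrp1 (0.32, unadjusted p = 0.00871) joined Sfrp4 (-0.63) and Wnt11, where 9.22% of all genes had an unadjusted p under 0.05 and 0.0102% were called, none of them Wnt genes. In the test of genotype by stage 9 of 34 Wnt genes had an unadjusted p under 0.05 (26.5%), against 11.9% of all genes. They were Fzd1, Fzd5, Fzd8, Rspo3, Wnt3, Wnt4, Wnt5b, Wnt7b and Wnt8a, while Sfrp1 and Fzd7 were no longer among them. Rspo3 had an adjusted p of 0.354 in edgeR's quasi-likelihood test. The smallest adjusted p, that of Fzd5, was 0.142, and 0.214% of all genes were called.

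Tissue markers also differed between the genotypes at the late stages, and none of those given here was called. At gd16.5 the 7 tested markers of uterine stroma and decidua were all lower in C1qtnf6-KO MFI (median log2 fold change -0.62), as were 5 of 5 of smooth muscle (-0.51) and 4 of 4 of endothelium (-0.36), 4 of 4 of labyrinth trophoblast (-0.76), 4 of 4 of red cells (-0.65) and 2 of 2 of NK cells (-1.05). The labyrinth sum ran from 598 to 703 CPM in WT and from 382 to 589 CPM in C1qtnf6-KO libraries. The stroma and decidua sum ran from 1677 to 2509 CPM in WT and from 1579 to 2188 CPM in C1qtnf6-KO libraries. The spongiotrophoblast sum ran from 21142 to 29605 CPM and from 35688 to 38740.3 CPM, without overlap, although 3 of its 5 markers were higher and 2 lower in C1qtnf6-KO MFI (median 0.50). The trophoblast giant cell sum ran from 16652 to 23790 CPM and from 24975 to 29176 CPM, also without overlap. Of its markers 4 were higher and 1 lower in C1qtnf6-KO MFI (median 0.43). Of the macrophage markers 2 were higher and 1 lower (median 0.69). At gd19.5 smooth muscle markers were higher in C1qtnf6-KO MFI for 5 of 5 (0.57) and endothelial markers for 4 of 4 (0.28), as were red cell markers for 4 of 4 (0.77). Uterine epithelium markers were higher for 4 of 5 (0.05). Their sum ran from 51.4 to 55.6 CPM in WT and 61.1 to 72.4 CPM in C1qtnf6-KO libraries, without overlap. The macrophage sum (627 to 699 and 766 to 822 CPM) and the mesothelium sum (109 to 127 and 131 to 152 CPM) did not overlap either. Of these, 2 of 3 and 1 of 3 markers were higher. NK cell markers were lower for 2 of 2 (-0.50), and spongiotrophoblast (-0.20) and giant cell markers (-0.13) for 4 of 5 each. Stroma and decidua markers were divided at gd19.5, 3 higher and 4 lower. Their sum ran from 2451 to 3715 CPM in WT and from 1903 to 2247 CPM in C1qtnf6-KO libraries, without overlap. Of the labyrinth markers 3 of 4 were lower at gd19.5 (-0.19). Markers of yolk sac endoderm were uneven at gd16.5, at 79.7 to 7487 CPM in WT and 154 to 19929 CPM in C1qtnf6-KO libraries. Apart from Synb, none of the defining markers in these lists was at 0 in all 3 libraries of a gd16.5 or gd19.5 group. The part of tissue composition in the differences of the Wnt genes was not tested.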

How the data were processed

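Raw counts per gene of 24 MFI libraries (TruSeq stranded mRNA, 150 bp paired-end reads) were used as deposited by the authors, who trimmed reads with Trim Galore 0.6.4, aligned them to GRCm38 with STAR 2.7.3a and counted them with featureCounts of Subread 2.0.0. Its defaults ignore strand and drop reads that map to several places or overlap more than 1 gene. Tests used R 4.3.3 and edgeR 4.0.16: filterByExpr with a count minimum of 10 and a total of 15, TMM scaling, glmQLFit and glmQLFTest, two-sided, with Benjamini-Hochberg adjustment over all genes tested. Calls needed an adjusted p under 0.05 and a log2 fold change over 1 in size, the study's own thresholds. The standard error (SE) of a log2 fold change is its size divided by the square root of F. Stage steps used all 24 libraries with 8 group means, and genotype comparisons the 6 libraries of a stage, giving 17480, 18024, 17071 and 17397 genes tested. An additive model and a test of genotype by stage used all 24 libraries. An exact permutation test of 3 against 3 cannot go below 0.1 and was not used. Alternatives were DESeq2 1.42.0 and its size factors (RLE), no filter, a replicate block, other sets of libraries, no fold threshold and leaving out each library. Gene positions and the other-strand overlaps came from GENCODE M21.

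The Wnt genes, the pathway and marker lists and the tests were chosen with earlier results of these data known. Genes named with every library's value were those called in at least 1 stage step, up to 6 per family by the largest log2 fold change, and every gene at an unadjusted p under 0.05 in a genotype comparison named with its log2 fold change. Other genes were named after their values were seen. Promoter sequences came from RefSeq for GRCm38.p6. Depth ran from 20975717 to 37383108 counts a library, and the 3-count limit covers counting error only.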

Additional observations from a re-analysis of the deposited data

Results flagged for a closer look

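The Wnt4 libraries of the 2 genotypes lay apart at both late stages, in opposite directions. Among all genes tested, the libraries of the genotypes did not overlap for 17.7% at gd16.5 and 21.4% at gd19.5. Wnt4 had an unadjusted p under 0.05 in edgeR at gd19.5 but not at gd16.5. At gd16.5 the 3 C1qtnf6-KO libraries, at 16.9, 16.2 and 13.8 CPM, all lay below the 3 WT libraries, at 17.0, 19.1 and 20.7 CPM, a log2 fold change of -0.26. At gd19.5 the C1qtnf6-KO libraries, at 20.6, 27.1 and 23.8 CPM, all lay above the WT libraries, at 20.04, 20.3 and 18.8 CPM, a log2 fold change of 0.25. edgeR's test of genotype by stage, which covers all 4 stages, gave Wnt4 a p of 0.42 and an adjusted p of 0.855 with all 24 libraries, and without replicate 2 of the C1qtnf6-KO gd10.5 group, the library that stood apart, a p of 0.0409 and an adjusted p of 0.402. A difference between stages did not pass the adjusted threshold either way.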

How the results depend on the processing

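Over 472 alternative values of 43 stage differences of named genes, 436 kept their direction and call, 36 kept their direction but lost the call and 0 reversed; of 315 alternative values of 24 genotype differences, 313 kept both and 2 gained a call, both of Sfrp4 (at gd16.5 without the filter, given above, and at gd19.5 with the replicate block). The number of Wnt genes called at gd16.5 in WT MFI went from 4 to 9 without the fold threshold. From gd16.5 to gd19.5 it went from 0 to 1 in WT MFI without the filter, in the 12 WT libraries alone and with DESeq2, and from 0 to 2 in C1qtnf6-KO MFI without the filter, with DESeq2 and without the fold threshold. Rspo1, at no more than 10 counts a library, was called lower at gd14.5 in C1qtnf6-KO MFI without the filter (adjusted p = 0.0222). Among genotype comparisons it went from 0 to 1 at gd16.5 without the filter, at gd19.5 with the replicate block, and in the test of genotype by stage with DESeq2. The cause of each was not tested. Leaving out 1 library gave 15 to 19 calls (17) in WT and 14 to 18 (17) in C1qtnf6-KO MFI at gd14.5, 3 to 4 (4) and 3 to 6 (5) at gd16.5, and 0 to 1 (0) in each at gd19.5. With the replicate number as a block the calls were 18, 16, 3 and 5 in the same order, Wnt9b was not called in WT MFI at gd16.5 (1.15, adjusted p = 0.0596) nor Wnt6 in C1qtnf6-KO MFI at gd14.5 (-0.998, adjusted p = 0.0304), and Wnt7a was called in WT MFI at gd14.5 (1.24, adjusted p = 0.0406) and Sfrp4 between the genotypes at gd19.5 (-1.01, adjusted p = 0.0281). The numbers were not taken as a pairing, because in no comparison did the deviations of all 3 same-numbered pairs correlate above 0.1. Between the genotypes at gd14.5 and gd19.5 all 3 were positive (lowest r 0.0271 and 0.0379). At gd19.5 each of the 6 libraries correlated best with its own number, against 1, 4 and 3 of 6 at gd10.5, gd14.5 and gd16.5 and 0 to 2 of 6 in the stage steps, a hint from the data and not from the design. Without the filter the genotype fits called 44, 50 and 82 genes at gd14.5, gd16.5 and gd19.5, against 3, 1 and 4, and gave adjusted p under 0.05 to Sfrp4 and Sfrp5 at gd14.5 and to Sfrp1, Sfrp4, Fzd5, Wnt5b and Wnt7b at gd19.5, at the same log2 fold changes to within 0.01; the cause was not tested. Genes under about 1 CPM in at least 1 group (Wnt8a, Wnt10a, Wnt3, Wnt16, Fzd9, Wnt7a and Rspo4 among them) rest on few counts there, and smaller changes in them were not detectable at this depth.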

Other observations

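Other secreted or surface modulators of the pathway, named after their values were seen, moved at gd14.5 in both genotypes. Sostdc1, a secreted antagonist that binds Lrp5/6, was called higher in both (adjusted p = 0.000113 in WT and 8.33e-05 in C1qtnf6-KO MFI). It stood at 0.0688, 0 and 0 CPM at gd10.5 and 0.448, 0.553 and 0.421 CPM at gd14.5 in WT MFI, and at 0, 0.0381 and 0 CPM and 0.378, 0.464 and 0.651 CPM in C1qtnf6-KO MFI. Kremen2, a surface partner of Dkk1, was called higher too (adjusted p = 0.000213 and 6.49e-05), from 0.0688, 0.135 and 0.212 CPM to 0.790, 0.636 and 0.926 CPM in WT MFI and from 0.0374, 0 and 0.104 CPM to 0.378, 0.747 and 0.727 CPM in C1qtnf6-KO MFI. The gd10.5 libraries of both genes held so few counts that the size of the fitted fold depends on the prior count, and it is not given. Apcdd1, a membrane inhibitor, rose by 1.19 ± 0.18 (SE, adjusted p = 1.96e-05) in WT MFI and 1.27 ± 0.18 (SE, adjusted p = 1.25e-05) in C1qtnf6-KO MFI on the log2 scale. Draxin, a secreted inhibitor best known from axon guidance, fell, at -1.97 ± 0.45 (SE, adjusted p = 0.0012) in WT MFI and -1.45 ± 0.47 (SE, adjusted p = 0.0141) in C1qtnf6-KO MFI. Among the nuclear factors Lef1 fell, at -1.96 ± 0.43 (SE, adjusted p = 0.000724) in WT MFI and -2.23 ± 0.43 (SE, adjusted p = 0.000255) in C1qtnf6-KO MFI, and Tcf7 fell, at -1.06 ± 0.24 (SE, adjusted p = 0.000927) in WT MFI and -1.08 ± 0.24 (SE, adjusted p = 0.000899) in C1qtnf6-KO MFI. The other 10 tested cytoplasmic and nuclear genes, β-catenin (Ctnnb1) among them, were not called at this step.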
